A study of Homo sapiens with 2 samples.

Results

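The genes examined here belong to the interferon response and to the sensing of double-stranded RNA. They were chosen as 41 gene names, of the 30484 on the array, and a probe was taken where its gene name in the scanner files was one of the 41. HEK-293, a human embryonic kidney cell line, was transfected for 48 h with 75 nM of a miR-204 mimic or with 75 nM of scrambled oligos. Total RNA of the miR-204 cells and of the control cells was hybridized together on 2-colour Agilent arrays, with the control RNA in Cy3 and the miR-204 RNA in Cy5 on array 1 and the dyes exchanged on array 2. Neither the sample labels nor the methods name a second transfection, so the 2 arrays, which lay on 1 slide and were scanned together, were counted as 1 replicate. Both groups received a short RNA, and no untransfected cells were on the arrays. A change shared by both transfections therefore leaves no trace in the ratios, and with 1 replicate a test over the channels compares these arrays and not the conditions.

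Cells detect foreign double-stranded RNA with cytoplasmic helicases (RIG-I and MDA5), with Toll-like receptor 3 in endosomes, with the kinase PKR and with the oligoadenylate synthetases. The helicases and the Toll-like receptor signal to the transcription factors IRF3 and IRF7, which switch on interferon genes, and secreted interferon then acts through its receptor, the kinases JAK1 and TYK2, and a complex with STAT2 and IRF9 that binds interferon-stimulated response elements. HEK-293 cells carry adenovirus E1A, a protein known to dampen the transcription of interferon-stimulated genes. A microRNA acts instead by pairing of its seed, near its 5′ end, with target mRNAs.

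The mature sequence of the microRNA is shown first because the mimic is the only difference between the groups that the labels name. It is taken from the RefSeq annotation of GRCh38.p14, with the seed (bases 2 to 8) in capitals. The strand lies at chr9:70810031-70810052 on the minus strand, and miR-211-5p has the same seed.
hsa-miR-204-5p: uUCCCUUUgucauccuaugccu
hsa-miR-211-5p: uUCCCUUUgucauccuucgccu

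The element through which interferon acts was searched as GAAANNGAAA, or TTTCNNTTTC on the other strand, in RefSeq promoter windows that run from 250 bases before to 50 bases after a start of transcription. Such windows were given for 31 of the 41 genes, some with several starts, and 18 of the 31 (58.1%) held the letters in at least 1 window. Among all 27305 genes with a window, 1195 (4.38%) did. A second motif, the core of the gamma-activated site, TTCNNNGAA, which reads the same on both strands and may share bases with the first, was found for 10 of the 31 genes (32.3%) and for 2560 of all genes (9.38%). A match is a run of letters and was not tested as a binding site, and genes of this kind are known for the first element, so that these shares are no independent finding.

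The next windows of 30 bases are shown because they place the same element beside genes that were read on the array and genes that were not. All are 5′ to 3′ on the strand of the gene, on GRCh38.p14, with the first match of the promoter window in capitals. The windows of B2M and BST2 also hold a second match, GAAACTGAAA, which overlaps the first and is only partly in capitals. The first 4 belong to genes with a signal well above background in every channel, and the last 3 to genes without one in any channel.
IFIT1, chr10:89392497-89392526, plus strand: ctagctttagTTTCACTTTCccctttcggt
IFITM1, chr11:313990-314019, plus strand: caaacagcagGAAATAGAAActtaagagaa
B2M, chr15:44711363-44711392, plus strand: gagactctaaGAAAAGGAAActgaaaacgg
BST2, chr19:17405741-17405770, minus strand: tcctttctggGAAACTGAAActgaaaacct
IFIT3, chr10:89332425-89332454, plus strand: acagattctgTTTCAGTTTCccctcaagag
OAS3, chr12:112938321-112938350, plus strand: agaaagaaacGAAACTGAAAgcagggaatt
RSAD2, chr2:6877622-6877651, plus strand: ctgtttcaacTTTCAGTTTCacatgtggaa
The element was present on both sides of this division, for 4 of the 5 unread genes that had a window and for 11 of the 23 genes read in all 4 channels.

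A gene was counted as measured when 1 of the RNAs, either control or miR-204, lay well above background at a probe of the gene with both dyes. By this rule 31 of the 41 genes (75.6%) were measured, beside 61.0% of all gene names. In all 4 channels, 28 genes (68.3%) had a probe above background, beside 56.7% of all gene names. The 9 genes with no probe well above background in any channel were OAS1, OAS2, OAS3, OASL, MX2, RSAD2, IFI44, IFIT3 and IFNAR2. TLR3, IFIT2 and GBP1 were read in 3 channels, each time with the miR-204 RNA of array 2 missing, and TAP2 in the control RNA of array 2 alone, so TAP2 was not counted. The miR-204 RNA of array 2 also had the fewest probes above background over the whole array, 23453 of 41000 against 25526 to 27095 in the other channels. Of the 63 probes for these genes, 44 and 44 were above background in the control and miR-204 RNA of array 1, and 45 and 40 in those of array 2. None was saturated or carried an outlier flag.

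By role, 9 of 10 signalling genes were above background in all 4 channels. Among the sensors this number was 5 of 10, among the induced effectors 12 of 18 and among the antigen presentation genes 2 of 3. The oligoadenylate synthetase genes OAS1, OAS2 and OAS3 and their relative OASL were not well above background in either RNA. The kinase PKR and both cytoplasmic helicases were read in both RNAs.

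No measured gene of the set was changed by 2-fold. The numbers were 0 lower and 0 higher, where 0.452% of all measured gene names were lower and 0.151% higher by the same rule, a mean of the arrays past the limit with 1 sign on both. At 1.5-fold the numbers were again 0 and 0, beside 2.06% and 1.44% of all gene names. The mean log2 ratio of miR-204 over control ran from -0.47 for BST2 to 0.37 for IRF7, and its SD over the 31 genes was 0.17, beside 0.26 over all 18585 measured gene names. The median over the set was -0.02 on array 1, -0.08 on array 2 and -0.07 in the mean, beside 0.02, -0.004 and 0.002 over all gene names. In RNA from a whole culture, fewer cells with a transcript and less transcript per cell cannot be told apart.

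The direction of these ratios turned with the dye more often than not. Of the 31 genes, 12 were higher in the Cy5 channel on both arrays and 6 were higher in the Cy3 channel on both arrays, so that their ratio of miR-204 over control changed sign. The other genes kept their sign, 10 being lower and 3 higher in miR-204 cells on both arrays. Over all 18585 measured gene names, 4241 were lower and 4553 higher on both arrays. The share with 1 sign on both arrays was 41.9%, beside 47.3% of all measured gene names. The plot of one array against the other shows the genes of the set inside the cloud of all gene names.

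**Figure D1:**
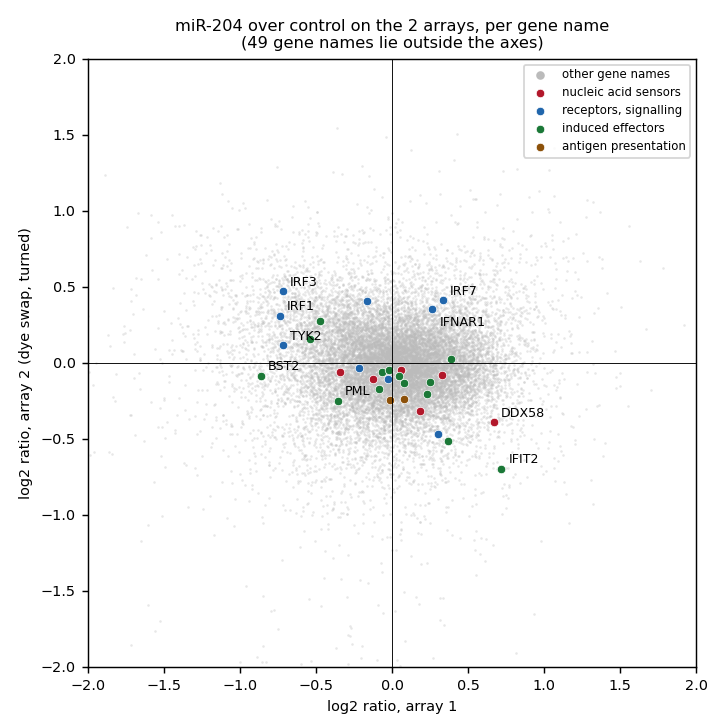
Log2 ratio of miR-204 over control on array 1 (horizontal axis) and on array 2, the dye swap with its sign turned (vertical axis). Each point is a gene name, grey for all measured gene names and coloured by role for the 31 measured genes of the set. 49 gene names lie outside the axes and none of them is in the set. Genes in the upper left and lower right, such as IRF3 and IFIT2, changed sign between the arrays.

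Of the sensors, the helicases are described first. DDX58, the older symbol of the gene for RIG-I, which binds RNA with 5′ triphosphates, had processed signals of 154 in the control and 245 in the miR-204 RNA of array 1, and of 133 and 101 on array 2. Its log2 ratios were 0.67 and -0.39, so that it was higher in the Cy5 channel on both arrays. IFIH1, which encodes MDA5, the sensor of long double-stranded RNA, had signals of 211 and 220 on array 1 and of 131 and 128 on array 2. Its log2 ratios of 0.06 and -0.05 were closest to 0 on both arrays among the measured sensors. TLR3 had 28.9 and 33.5 on array 1 and 19.8 and 14.4 on array 2, the last not above background, which gave log2 ratios of 0.19 and -0.32.

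EIF2AK2, the gene for PKR, a kinase that halts translation when it binds double-stranded RNA, had 2 probes. The first had signals of 1392 and 1355 on array 1 and of 992 and 814 on array 2, in the order control and miR-204. The second had 155 and 133 on array 1, and 88.6 and 93.5 on array 2. The mean of the probes was lower in the miR-204 RNA on both arrays, with log2 ratios of -0.13 and -0.11. ADAR, which edits adenosine to inosine in double-stranded RNA and so lowers its detection, had signals of 6261 and 5509 on array 1 and of 4657 and 4372 on array 2 for 1 probe. The other ADAR probe gave 98.6 and 67.9 on array 1, and 72.6 and 71.3 on array 2. Both ADAR probes were lower in the miR-204 RNA on both arrays, and the gene had a mean log2 ratio of -0.20, with -0.34 and -0.06 on the arrays. IFI16, a sensor of DNA in the nucleus, had signals of 1955 and 2447 on array 1 and of 1357 and 1239 on array 2 for 1 probe, and of 581 and 706, then 442 and 438, for the other. Both of its probes were higher on array 1 and lower on array 2, and its mean log2 ratio was 0.12.

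The oligoadenylate synthetases make the second messenger that activates RNase L. None of the 6 probes for these genes and their relative OASL was above background. OAS1 had signals of 4.16 and 3.62 on array 1 and of 2.27 and 4.96 on array 2. The OAS2 probes lay between 2.30 and 5.39, and the OAS3 probes between 2.52 and 8.24. OASL, a relative without synthetase activity in humans, reached 19.9 in the miR-204 RNA of array 1, with 7.07 in its control and 10.9 and 8.69 on array 2. These values were not well above background, and no ratio was read from them.

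**Figure D2:**
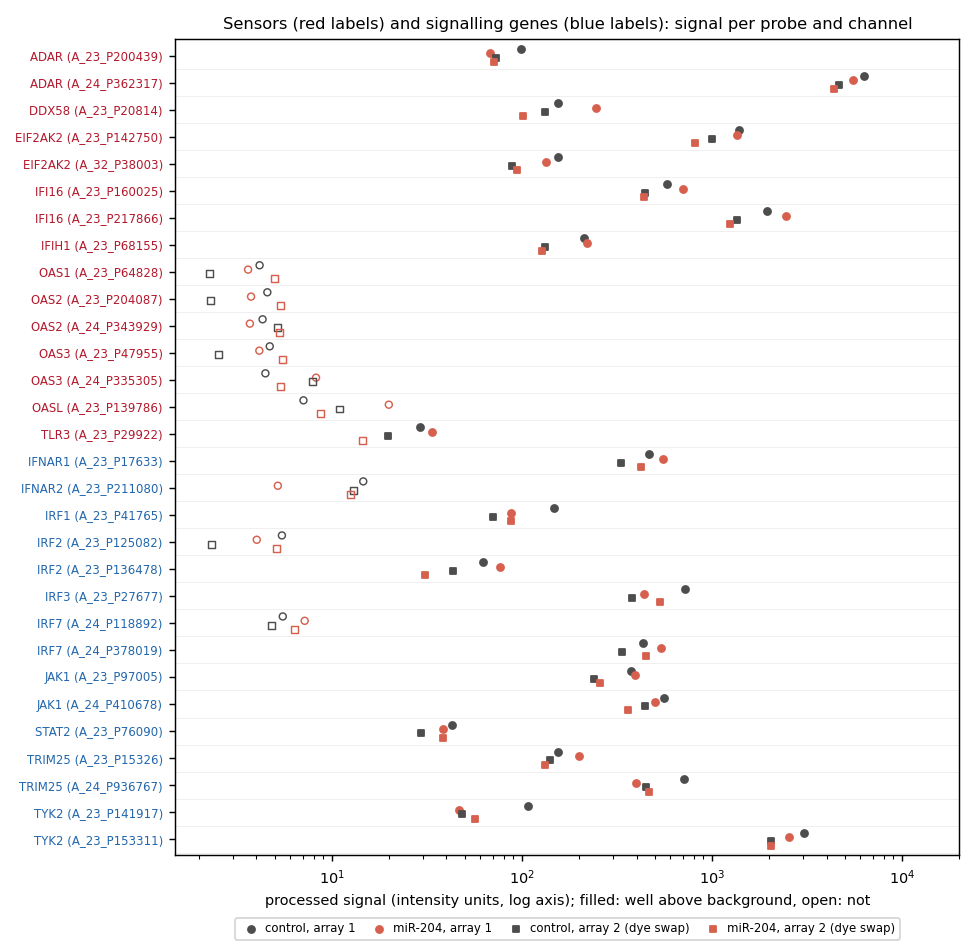
Processed signal (horizontal log axis, intensity units) of each probe for the sensors and signalling genes. Circles are array 1 and squares array 2, grey the control RNA and red the miR-204 RNA, and open symbols were not well above background. All oligoadenylate synthetase probes are open, while those for IFIH1, DDX58, EIF2AK2, ADAR and IFI16 are filled in all 4 channels.

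Among receptors and signalling genes the largest ratios with 1 sign on both arrays were those of IRF7 and IFNAR1. IRF7, a transcription factor that drives interferon alpha genes and is itself induced by interferon, had signals of 431 and 536 on array 1 and of 337 and 449 on array 2. Its log2 ratios were 0.33 and 0.41, and the mean of 0.37 was a fold of 1.29. The probe lies at chr11:602643-602702 of hg18 on the minus strand, and a second IRF7 probe was not above background in any channel. IFNAR1, a chain of the type I interferon receptor with its probe at chr21:33649826-33649884 of hg18, had 465 and 554 on array 1 and 330 and 423 on array 2. Its log2 ratios were 0.26 and 0.35, a fold of 1.24 in the mean. In both genes the miR-204 RNA was higher with either dye, though less than by 1.5-fold. The partner chain IFNAR2 was not above background, with signals from 5.18 to 14.6.

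The kinases bound to the receptor had means below 0, and neither had 1 sign at every probe and on each array. JAK1 had a mean log2 ratio of -0.07, but its 2 probes differed in sign, with 0.08 and 0.09 for one on the arrays and -0.14 and -0.31 for the other. TYK2 had 1 probe with signals of 3029 and 2527 on array 1 and of 2040 and 2038 on array 2, and another with 107 and 46.5, then 48.6 and 56.8. The second probe alone passed 2-fold on array 1, with a log2 ratio of -1.20, and had 0.22 on array 2. The gene's ratios of -0.72 and 0.12 changed sign, and the mean was -0.30.

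The transcription factors IRF1, IRF2, IRF3 and STAT2 each changed sign between the arrays. IRF1, an activator induced by interferon gamma, had signals of 148 and 87.2 on array 1 and of 70.1 and 87.2 on array 2, hence log2 ratios of -0.74 and 0.31. IRF3, which is constitutively present and activated by phosphorylation, had log2 ratios of -0.72 and 0.47. STAT2 had -0.17 and 0.41, and IRF2, a repressor at the same elements, had 0.30 and -0.47. IRF1, IRF3 and STAT2 were higher in the Cy3 channel on both arrays and IRF2 in the Cy5 channel. TRIM25, the ubiquitin ligase that assists RIG-I, had a mean log2 ratio of -0.13, with probes at -0.82 and 0.03 and at 0.37 and -0.10 on the arrays.

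Effector genes that respond strongly to interferon fell into read and unread ones. IFIT1, which binds RNA lacking 2′-O-methylation at the cap, had signals of 1226 and 1296 on array 1 and of 860 and 788 on array 2, with log2 ratios of 0.07 and -0.13. IFIT1 was thus read in both RNAs, with nearly equal signals on each array. IFIT2, from the same gene family, had 44.0 and 72.1 on array 1 and 36.1 and 21.6 on array 2, the last not above background. Its log2 ratios of 0.72 and -0.70 were the widest apart in the set and averaged 0.01. IFIT5 was higher on both arrays, with log2 ratios of 0.39 and 0.02. The signals of its probes were 501 and 683, then 357 and 380, for one, and 636 and 780, then 463 and 461, for the other. IFIT3 was not above background, with 12.0 and 6.29 on array 1 and 4.09 and 4.96 on array 2.

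MX1, a GTPase that blocks influenza virus, was read in every channel, and its relative MX2 in none. The MX1 signals were 82.1 and 105 on array 1 and 62.9 and 44.4 on array 2, with log2 ratios of 0.36 and -0.52. RSAD2, the gene for viperin, had 2 probes between 2.47 and 12.0, none above background. IFI44 had 8.60 and 4.70 on array 1 and 5.65 and 6.26 on array 2, also not above background. IFI27, a small mitochondrial protein much used in interferon scores, was read by both probes, with 445 and 439 on array 1 and 350 and 301 on array 2 for one of them. The other IFI27 probe had 77.0 and 68.9 on array 1, and 72.8 and 67.7 on array 2. The gene's mean log2 ratio was -0.13, with a lower value in the miR-204 RNA on both arrays.

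**Figure D3:**
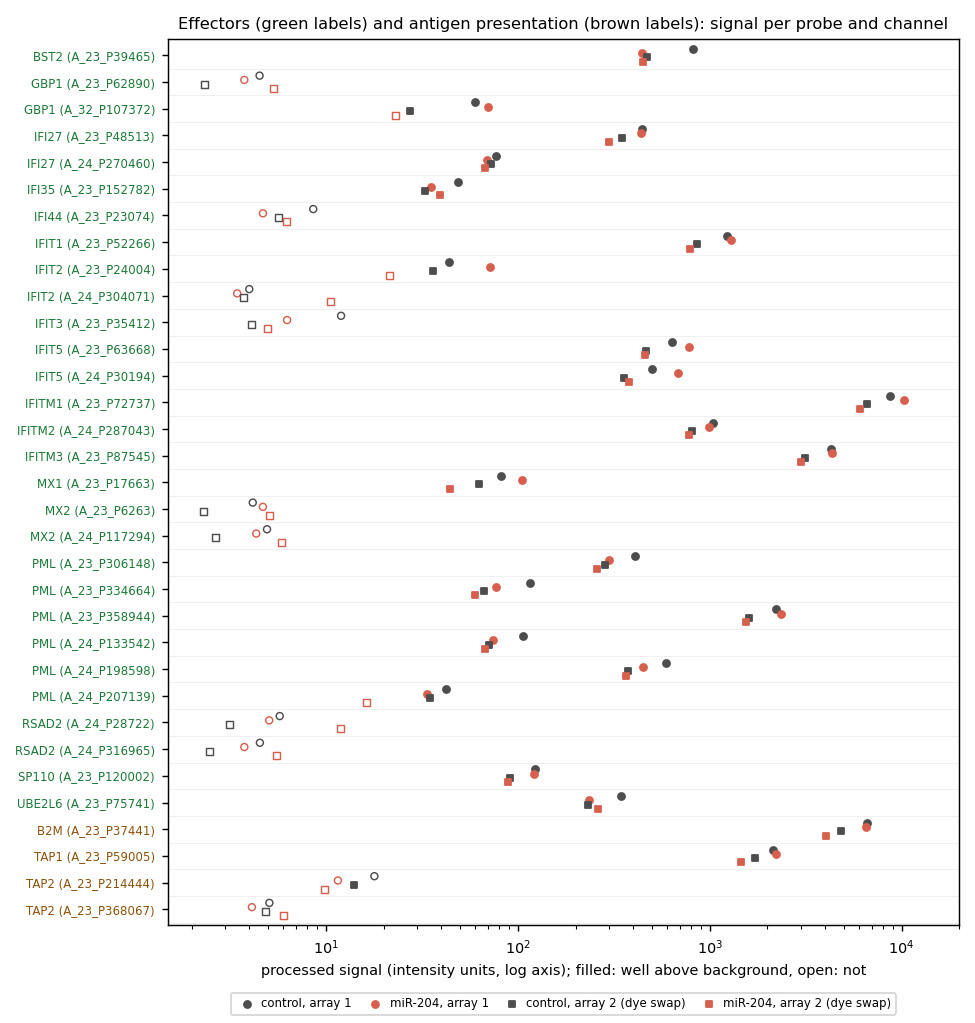
Processed signal (horizontal log axis, intensity units) of each probe for the induced effectors and the antigen presentation genes. Circles are array 1 and squares array 2, grey the control RNA and red the miR-204 RNA, and open symbols were not well above background. IFIT3, IFI44, MX2 and RSAD2 have only open symbols, and the symbols of IFITM1, IFITM2, IFITM3 and B2M lie close together on each array.

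The 3 interferon-induced transmembrane proteins, which restrict the entry of enveloped viruses, were read in all channels, with mean log2 ratios near 0. IFITM1 had signals of 8705 and 10282 on array 1 and of 6563 and 6059 on array 2. Its log2 ratios were 0.25 and -0.13, and so changed sign. IFITM2 had 1045 and 986 on array 1 and 811 and 781 on array 2, with log2 ratios of -0.07 and -0.06, and so kept its sign. IFITM3 had 4268 and 4330 on array 1 and 3150 and 2984 on array 2, with log2 ratios of 0.05 and -0.08. Their mean log2 ratios were 0.06, -0.07 and -0.02. These 3 genes are near copies of each other, and cross-hybridization of their probes was not tested.

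BST2, which tethers budding virus particles to the cell and has its probe at chr19:17375054-17375113 of hg18, had the lowest mean ratio of the set. Its signals were 817 and 442 on array 1 and 469 and 448 on array 2. The log2 ratios were -0.86 and -0.08, lower in the miR-204 RNA with either dye, and the fall by 1.5-fold was seen on array 1 alone. PML, which organizes nuclear bodies, had 6 probes, 5 of them lower in the miR-204 RNA on both arrays. One of its probes had signals of 594 and 452 on array 1 and of 377 and 368 on array 2. The sixth had 2226 and 2339 on array 1 and 1597 and 1547 on array 2, near equality. The gene had log2 ratios of -0.36 and -0.25 and a mean of -0.30. Another of the 6, counted in this mean but not above background in the miR-204 RNA of array 2, had log2 ratios of -0.33 and -1.01. Of the 44 counted probes of the set, it alone passed 1.5-fold in the mean with 1 sign on both arrays. With only probes above background in all 4 channels, the mean of PML was -0.23.

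The remaining effectors lay between these. UBE2L6, the conjugating enzyme for ISG15, had log2 ratios of -0.54 and 0.16, and IFI35 had -0.48 and 0.27. SP110, a nuclear body protein, had -0.02 and -0.05, and GBP1, a guanylate-binding protein, had 0.23 and -0.21 with its last channel not above background. Of these genes, SP110 alone kept its sign on both arrays.

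**Figure D4:**
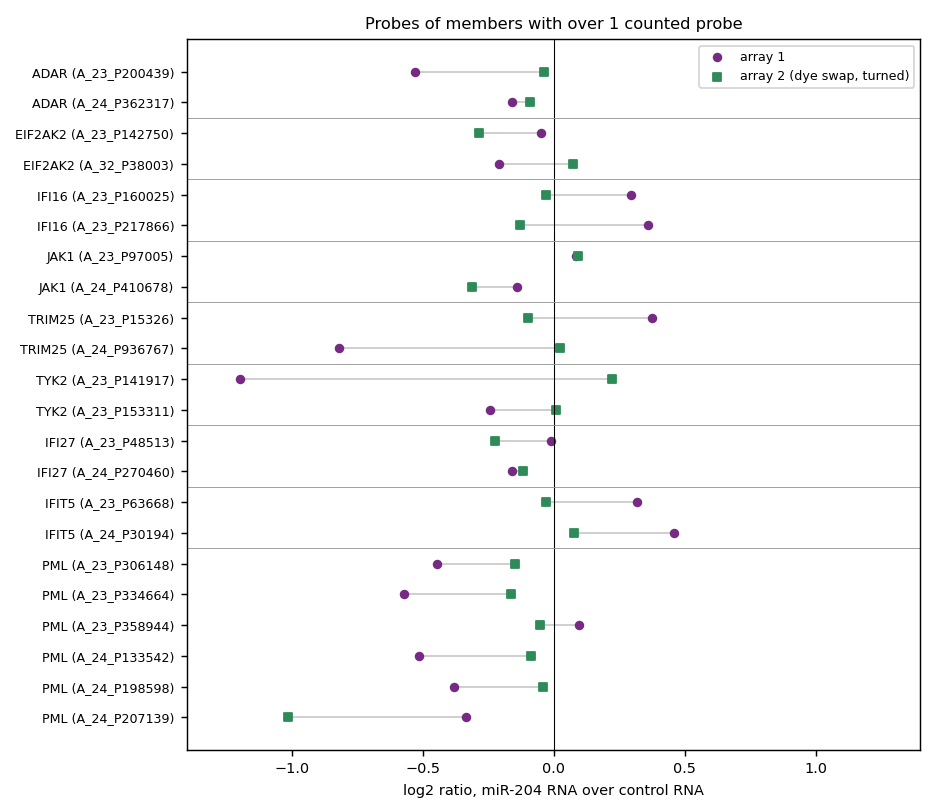
Log2 ratio of miR-204 over control (horizontal axis) for each counted probe of the genes with more than 1, circles for array 1 and squares for array 2. A grey line joins the arrays of 1 probe. The probes of IFI16 lie alike, while those of TRIM25 and JAK1 lie on both sides of 0 and 1 probe of PML lies to the right of the others on array 1.

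Of the antigen presentation genes, B2M, the light chain of class I molecules, had signals of 6607 and 6505 on array 1 and of 4813 and 4054 on array 2. TAP1, which carries peptides into the endoplasmic reticulum, had log2 ratios of 0.08 and -0.24, and those of B2M were -0.02 and -0.24. Both were lower in the miR-204 RNA on array 2, by less than 1.5-fold.

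**Figure D5:**
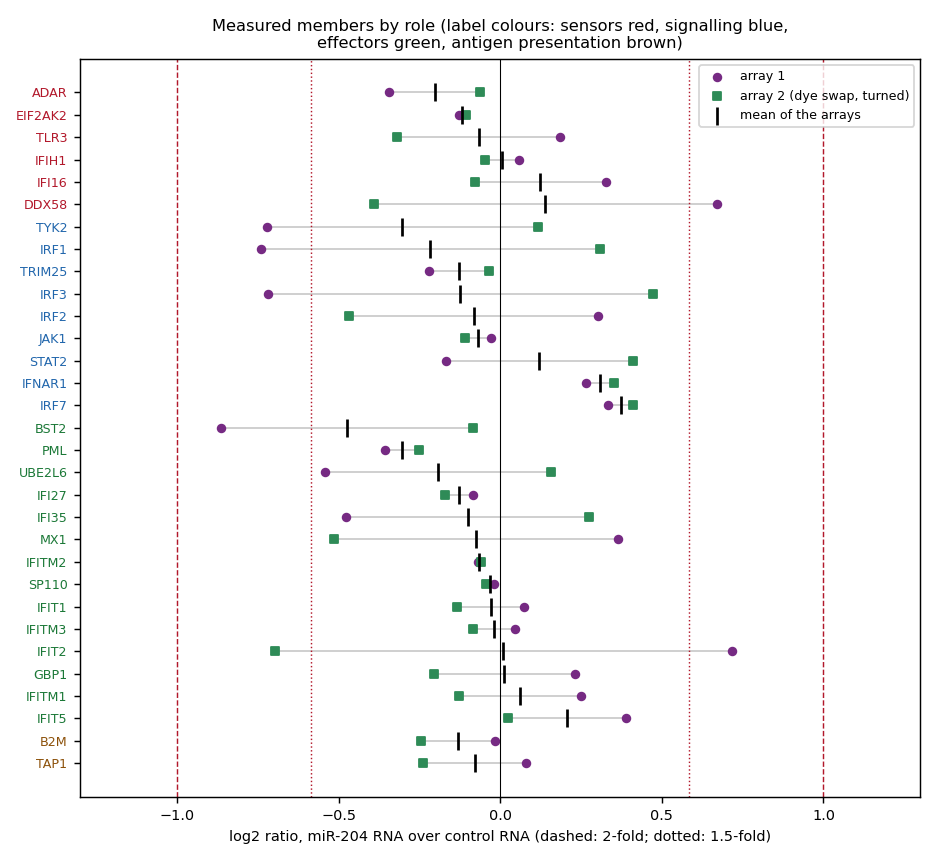
Log2 ratio of miR-204 over control (horizontal axis) for the 31 measured genes, grouped by role, with circles for array 1, squares for array 2 and a black bar for the mean. Dashed lines mark 2-fold and dotted lines 1.5-fold. No bar passes a dotted line, and 12 genes have the circle right of 0 and the square left of it.

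The t-test that the methods name was run over the arrays, and limma was run as an alternative that they do not name. The 4 channels are not independent cultures, so both tests compare only these arrays. The methods' t-test passed 2 of the 31 genes without adjustment, IFNAR1 and PML, which is 6.45% beside 6.41% of all measured gene names. After Benjamini-Hochberg adjustment it passed 0, as for all gene names. With limma, 0 of the 31 passed without adjustment, beside 4.54% of all gene names, and 0 of all gene names passed after adjustment.

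Other genes of the pathway, a list of 87, were counted by the same rules. On the array 85 were found by name, older symbol or accession, 59 were measured and 23 had no probe well above background in any channel. Over all gene names 33.4% had no such probe. None was past 2-fold, and 1 was past 1.5-fold, TBK1, the kinase that phosphorylates IRF3, which was higher in the miR-204 RNA. This 1 of 59 lies near the 1.44% of all gene names that were higher by this rule. Its counted probe had signals of 668 and 1138 on array 1 and of 390 and 518 on array 2, with log2 ratios of 0.78 and 0.39, and its other probe was not above background. The median log2 ratio over the 59 genes was -0.01, and the means ran from -0.49 to 0.59.

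The interferon genes themselves were not well above background. Each of the 8 interferon genes found on the array, among them IFNB1, IFNG and the lambda interferons, was below the limit in all 4 channels. IFNB1, the first interferon made by most cells, had signals of 4.37 and 3.79 on array 1 and of 2.37 and 5.21 on array 2. IRF9, which joins STAT2 in the complex, was read in both RNAs by 1 of its 2 probes, with log2 ratios of 0.32 and -0.48. MAVS, the mitochondrial adaptor of RIG-I and MDA5, had 0.11 and 0.01. ISG15, a ubiquitin-like protein and a common marker of the response, had signals of 1206 and 1209 on array 1 and of 955 and 1094 on array 2, with log2 ratios of 0.00 and 0.20.

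The label of the cell line was checked against its markers. VIM, KRT8, KRT18, CDH2, NEFL and NEFM were above background in all 4 channels, while PAX2 and PAX8 were not in any. Of these 8 genes, NEFM alone passed 1.5-fold and was lower in the miR-204 RNA. The leukocyte genes PTPRC, CD3E, LYZ and ITGAM had no signal above background, while CSF1R had it in 3 channels and CD14 in 2. The sum for 6 fibroblast, endothelial and liver genes was 352 and 381 on array 1 and 290 and 287 on array 2, and most of it came from COL1A1. COL1A1, a collagen chain gene, had signals of 279 and 323 on array 1 and of 216 and 199 on array 2, above background in all 4 channels, as was DCN. COL1A2 was above background in 1 channel, and PECAM1, CDH5 and ALB in none. The part of other cell types in the values above was not tested.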

How the data were processed

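Human HEK-293 RNA was read on 2 arrays of 1 dye swap. The authors used Feature Extraction 9.5.3.1, and the processed signals they deposited are intensity values corrected for background and dye. The deposited mean and local background signals are uncorrected intensity values. The deposited log ratio is a log10 of Cy5 over Cy3, and the authors' series table holds log2 ratios of miR-204 over control. Per the file headers, the annotation build is hg18.

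Control spots and 128 flagged probes were left out, spots of a probe were averaged on the log2 scale, and the 4 channels were brought to 1 distribution by quantile normalization (limma 3.58.1, R 4.3.3). A probe counted as above background where at least 0.5 of its spots were flagged well above it. Ratios are miR-204 over control, with the dye swap turned, and a gene is the mean of its counted probes. Levels of different probes were not compared.

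All 41 genes matched the RefSeq table by symbol, 1 of them renamed (DDX58, now RIGI), and promoter windows were used for 31. The members, roles, lists and motifs were chosen with earlier results of these data known. All 41 genes could be named, with signals in every channel for the sensors, for the lowest 5 and highest 5 mean ratios among genes read in all 4 channels, and for IFIT1, IFIT2, IFIT3, MX1, RSAD2, IFI27, IFI44, the IFITM genes and B2M. Alternatives changed the background correction, normalization, deposited values, signal filter, flags, gene summary, centring, call rule, gene names, arrays and test. Some genes of the pathway and marker lists are not reported here by name. The steps after the gene summary were tested on simulated gene levels, with changes planted above 2-fold. Normalization and the turning of the dyes were not part of this test. Precision is limited by there being 2 arrays.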

Additional observations from a re-analysis of the deposited data

How the results depend on the processing

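The counts of 0 at 2-fold held in both directions under every alternative run, those with the t-test and limma included. The counts of 0 at 1.5-fold moved with 3 settings. Without a filter on signal 2 genes were lower, IFIT3 and IFI44, neither above background in any channel. With 1 array left out, the number lower ran from 1 (IFIT2, without array 1) to 4 (IRF1, IRF3, BST2 and TYK2, without array 2), and the number higher from 0 to 2 (IFIT2 and DDX58, without array 2). The median log2 ratio of the measured genes ran from -0.084 without array 1 to -0.017 without array 2. The number of measured genes, 31 of 41, was 28 with all 4 channels required and 32 with any channel accepted. It was 36 when a signal significantly above background was accepted in place of one well above it. Some genes called unread here thus passed that milder limit. Of 31 genes, 12 had 1 sign in all 16 settings. Some of these settings gave the same ratios as another, so that they are not 16 separate checks. PML, at -0.30, was 0.02 when its brightest probe stood for the gene. The cause of these moves was not tested. Each array pairs the control and miR-204 RNA. The test with limma used the ratios of the 2 arrays, while the t-test took the channels as unpaired. Pairs of separate transfections could not be compared, because no second transfection is named. A fold below what 2 arrays of 1 slide can resolve would not be seen, and the genes not above background have no ratio.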
